A study of Caenorhabditis elegans with 43 samples.

Results

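The genes of the core piRNA biogenesis factors of *Caenorhabditis elegans* were examined in every deposited readout. The set held 8 genes, fixed by name: *snpc-4*, *prde-1*, *snpc-1.1*, *snpc-1.2*, *snpc-1.3*, *prg-1*, *prg-2* and *henn-1*. They were located by their start, end and strand in a small RNA table of 46904 annotated features, 20191 of them protein-coding. Each gene was taken with the 2 kb upstream of its start, and all 8 were found in the table. The table annotates 7 of them as coding and *prg-2* as a pseudogene.

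The piRNAs of this worm, also called 21U-RNAs, are small RNAs that guide the Argonaute PRG-1 to foreign and endogenous transcripts in the germline. Most are transcribed one by one from short promoters in clusters, by a complex that holds SNPC-4, a subunit of the SNAPc complex of small nuclear RNA genes, and PRDE-1. SNPC-1.1, SNPC-1.2 and SNPC-1.3 are paralogs of another SNAPc subunit. SNPC-1.3 is the one tied to piRNAs of the male germline, which in hermaphrodites works during spermatogenesis. PRG-2 is the close paralog of PRG-1, and HENN-1 is the methyltransferase that modifies the 3′ ends of piRNAs. TRA-1, a GLI-family zinc finger protein, ends the sex determination pathway and acts mainly as a repressor of male genes. The question put to the data was whether TRA-1 sits at any of these genes other than *snpc-1.3*, and how small RNA reads and SNPC-1.3 ChIP behave over the same genes.

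All samples were whole worms in bulk, so fewer germ cells of a kind and less RNA per cell cannot be told apart. Small RNA libraries came from WT (the N2 strain) at 48 hr, the stage of spermatogenesis (spe., n = 3), from *snpc-1.3(-)* worms, which carry the loss-of-function allele *xk27*, at 48 hr (n = 2), from WT at 72 hr, the stage of oogenesis (oog., n = 3), and from *snpc-1.3(2xtbs)* at 72 hr (n = 3). The *snpc-1.3(2xtbs)* worms carry mutated TRA-1 binding sites (tbs) in the *snpc-1.3* promoter, and their genotype label names the allele *xk36*, which also has a 3xFlag tag on *snpc-1.3a*. TRA-1 ChIP used an anti-Flag antibody at 72 hr in N2 worms, which have no tag, in *3xflag::tra-1* worms (allele *xk37*), and in *3xflag::tra-1* worms that also carry the *snpc-1.3* promoter alleles 1xtbs, 2xtbs or 3xtbs. Each of these 5 genotypes had 2 peak lists, each called for 1 IP against its own input. SNPC-1.3 ChIP at 48 hr had 3 genotypes with 2 replicates of IP and input each. They were N2, a strain with *snpc-1.3::3xflag*, and a strain whose title joins this tag to *snpc-4::aid* and *Psun-1::TIR1*. Worms of the last strain spent 4 hr on 250 µM auxin, which degrades SNPC-4 in the germline, where the *sun-1* promoter drives TIR1. No auxin is listed for the other strains of this ChIP, and their titles name neither *snpc-4::aid* nor TIR1. Loss of SNPC-4 and these differences therefore cannot be told apart. Within an assay each mutant or tagged genotype was represented by a single allele. For the 2xtbs strain of the TRA-1 ChIP the paper lists a different 2xtbs allele, without the tag on *snpc-1.3a*. For the SNPC-4-depleted samples the genotype field lists no *snpc-1.3::3xflag*, and the description of the 3xtbs samples says 2xtbs. Their titles were followed. The labels do not say whether replicates came from separate cultures. The paper calls the ChIP-seq replicates and 3 small RNA replicates biological, without saying how they were grown apart. The p-values measure the spread between these samples only, which may be technical in part.

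Small RNA libraries held 4336397 to 22346249 counts on annotated features. miRNAs took 57.1 to 81.7% of the counts. *snpc-1.3(2xtbs)* replicate 1 was the deepest library and had 1.45% of its counts on coding genes, against 3.28 to 5.23% in the other 10. The TRA-1 lists held 12910 to 15124 peaks and give no depth. A peak overlapped the window of 46.4 to 55.3% of genes in a list, so a listed peak by itself sets no gene apart. The median fold enrichment of a peak over input was 1.50 and 1.64 in the N2 lists and 1.86 to 2.70 in the tagged lists.

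*snpc-1.3* (chrV:5437084-5439161 in WBcel235, minus strand) was the only one of the 8 genes with matches to TGGGTGGTC, the spelling of the TRA-1 binding motif at its own sites, in the gene body or 2 kb upstream. The search covered both strands, and neither the core GGGTGGTC nor the shorter GGGTGG, which lie inside this motif, matched in the other 7 windows. The paper writes the TRA-1 binding motif as GGG(A/T)GG. Its form GGGAGG, searched after seeing the data like GGGTGG, matched once upstream of *prde-1*, once upstream of *prg-2*, and once inside *prg-1* and inside *prg-2*. GGGTGG and GGGAGG occur in the 2 kb upstream of 27.5 and 30.4% of coding genes. *snpc-1.3* held 3 whole motifs, at positions -162 to -154, -142 to -134 and -123 to -115 from the start in the table. Among the 20191 coding genes, 139 (0.688%) had the whole motif at least once in the 2 kb upstream, and 370 (1.83%) had the core. Only *snpc-1.3* and *fog-3*, a gene that commits germ cells to spermatogenesis, had the whole motif 3 or more times. The search used the spelling of the *snpc-1.3* sites, so the matches and their count at *snpc-1.3* are no test. On the strand of *snpc-1.3* each site reads GACCACCCA. The reference stretch and the repair templates are shown since they are what the tbs alleles changed, with every complete 9-base site in capitals.
WT reference, chrV:5439240-5439353: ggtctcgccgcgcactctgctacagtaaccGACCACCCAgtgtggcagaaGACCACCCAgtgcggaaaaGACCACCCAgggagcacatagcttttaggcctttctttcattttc
1xtbs template: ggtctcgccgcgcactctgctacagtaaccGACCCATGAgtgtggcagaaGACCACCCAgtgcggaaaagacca
2xtbs template: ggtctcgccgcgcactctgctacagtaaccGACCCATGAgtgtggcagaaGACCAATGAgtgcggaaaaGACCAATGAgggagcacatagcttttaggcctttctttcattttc
With positions counted from 1 at the 5′ end of a site on the strand of the gene, the 1xtbs template changed the site farthest from the start by A5C, C6A, C7T and C8G and left the middle site as it was. The 2xtbs template carried these changes and also C6A, C7T and C8G in both other sites. The 3xtbs template as listed was identical to the 2xtbs template over all 114 bases, so the listed templates do not tell these alleles apart. Which bases the strains carry was not analysed here. No base outside the sites differed from the reference.

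TRA-1 was listed at the *snpc-1.3* promoter in the 2 lists of unmutated *3xflag::tra-1* worms and in no other list. Fold enrichment there was 3.24 in replicate 1 and 4.35 in replicate 2, with −log10 q of 70.7 and 80.7. The summits lay at -126 and -151, which is 7 bases from the centre of a site in each list. Neither N2 list, and none of the 6 lists from 1xtbs, 2xtbs and 3xtbs worms, had a peak within 500 bases of the start. The absence in both 1xtbs lists came with the mutation of a single site in the template. Peaks in the gene body remained in N2 replicate 2 (fold enrichment 1.50, +966), in unmutated replicate 2 (1.78, +1288) and in 3xtbs replicate 2 (1.54, +1257).

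The change over the tbs alleles was tested with limma on log2 fold enrichment, with a value of 1 where no peak was listed. A gene's window counted as its body plus 2 kb upstream, over 15002 genes with a peak in any list. By this measure *snpc-1.3* fell by 0.48 per mutated site on the log2 scale (SE 0.09, adjusted p = 0.113) and was not called. The scale of 0 to 3 sites follows the allele names. No member was called, although 4 of 8 had an unadjusted p under 0.05, and over all genes 17 were called lower (0.113%) and 3965 had an unadjusted p of 0.05 or less. The slope was negative in 75.4% of all genes, with a median of -0.14. *snpc-1.3* was called within 500 bases of the start and in the 2 kb upstream alone (-0.57 per site in both), as were 0.281 and 0.109% of genes there. Within 500 bases of the start it was also called as mutated minus unmutated lists, a contrast chosen after seeing the data, with 0.0468% of genes. In these windows *snpc-1.3* entered the fit only through the 2 unmutated lists, and its 6 other tagged values are the 1 given to a missing peak. These calls therefore restate which lists had the peak and are no further test. No other member was called with any of these windows. With 1 replicate number left out, nothing was called, and *snpc-1.3* had slopes of -0.45 and -0.51.

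**Figure D1:**
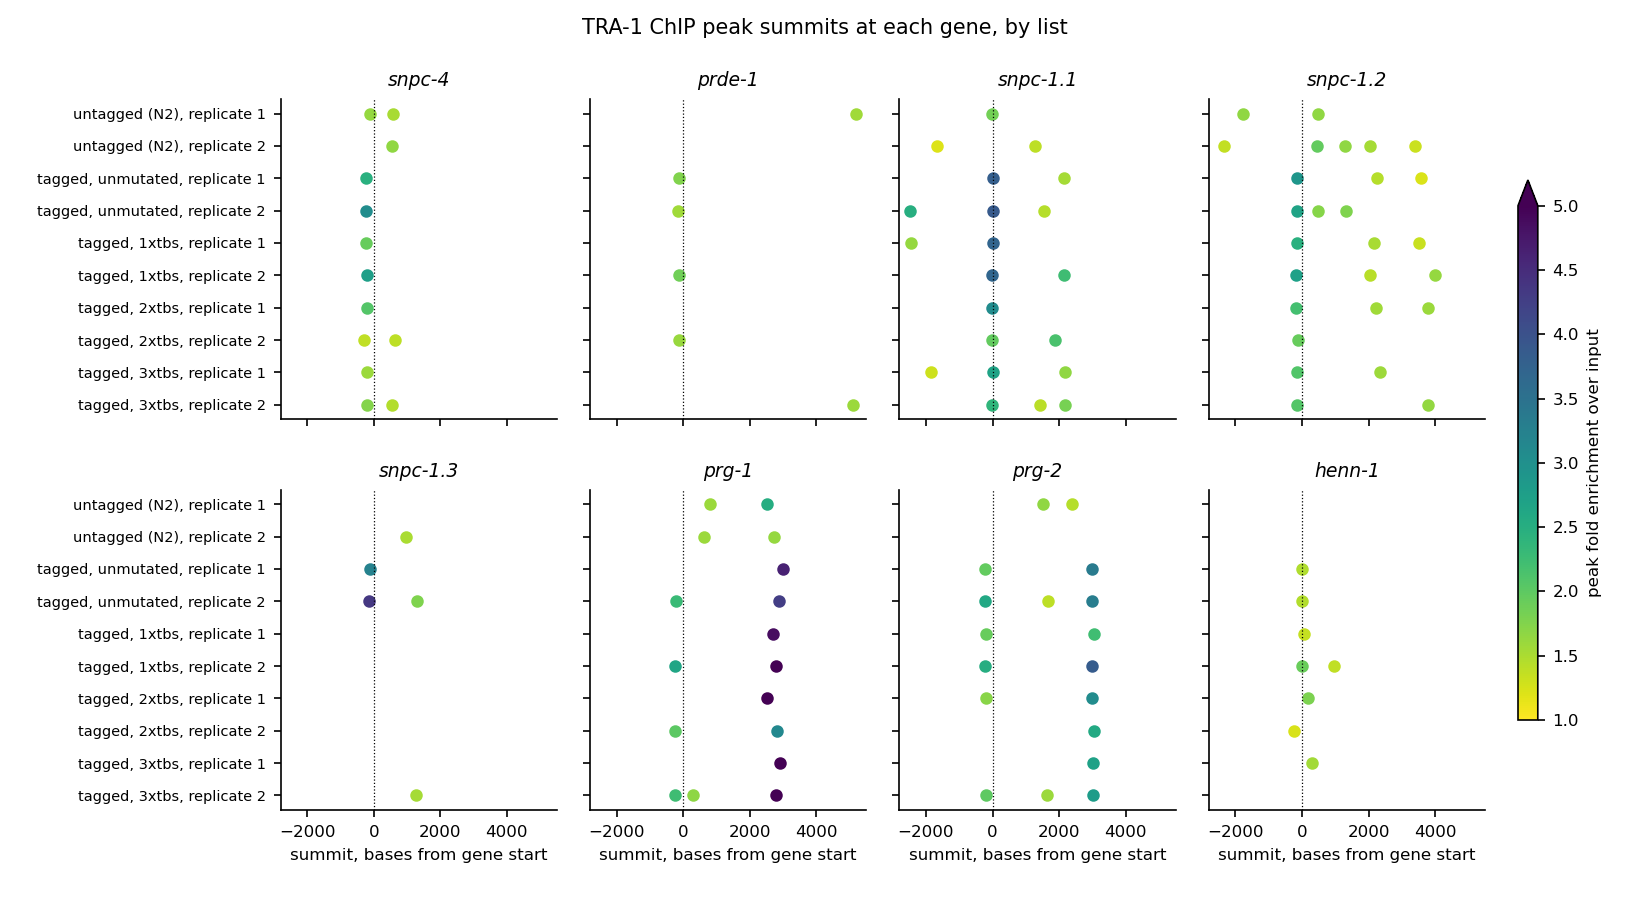
Summits of TRA-1 ChIP peaks in each gene window, as bases from the gene start on the x axis, with 1 row for each of the 10 lists and colour for fold enrichment over input. At *snpc-1.3* a summit lies just upstream of the start in the 2 unmutated tagged lists only, while *snpc-1.1*, *snpc-1.2* and *snpc-4* have one near the start in all 8 tagged lists.

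The slopes of the other members were -0.26 at *snpc-4*, -0.23 at *snpc-1.1*, -0.16 at *snpc-1.2*, -0.13 at *prde-1*, -0.09 at *prg-2*, -0.08 at *henn-1* and 0.04 at *prg-1*. By slope *snpc-1.3* ranked 180 from the lowest of 15002 genes. The coding genes with the smallest adjusted p for a negative slope were ZK1055.2 (-0.92), F26F4.6 (-1.15) and B0365.9 (-1.005). In the peak lists ZK1055.2 had the same all-or-none form as the *snpc-1.3* promoter, with a mean log2 fold enrichment of 3.06 in the unmutated lists. No other list had a peak there, which does not measure how much signal remained.

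The other SNPC-1 paralogs and *snpc-4* had TRA-1 peaks near their starts whether or not the *snpc-1.3* sites were mutated. Another coding gene lay in the 2 kb upstream of each: *spdl-1* at *snpc-1.1*, Y39E4B.5 at *snpc-1.2* and F32H2.11 at *snpc-4*. The gene to which these peaks belong therefore cannot be told apart. *snpc-1.1* (chrII:7779297-7781301, minus strand) had a summit between -20 and +22 in all 8 tagged lists. Fold enrichment of that peak was 3.81 and 3.88 in the unmutated lists, 3.70 and 3.69 in 1xtbs, 3.07 and 1.96 in 2xtbs, and 2.68 and 2.38 in 3xtbs. In the unmutated lists it was close to the *snpc-1.3* promoter peak, above 81.2 and 73.2% of the peaks of its list, against 74.4 and 78.2% for *snpc-1.3*. N2 replicate 1 also had a peak there, of 1.86 at -28, below all 8 tagged values, and N2 replicate 2 had none.

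*snpc-1.2* (chrIII:13165659-13169520, minus strand) had its strongest peak at -165 to -119 in all 8 tagged lists. It reached 2.89 and 2.68 in the unmutated lists, 2.47 and 2.72 in 1xtbs, 2.19 and 1.93 in 2xtbs, and 2.09 and 2.08 in 3xtbs. The N2 lists had peaks of 1.67 and 1.96 with summits inside the gene, at +490 and +459, so the values overlapped. These summits lay apart from those of the strongest tagged peaks. The N2 replicate 2 peak, of 1325 bases, still covered the stretch upstream of the start where the tagged summits lay. Unmutated replicate 2 had a further peak of 1.72 at +475, between the N2 summits. The 100 bases before the start of *snpc-1.1* and the 100 bases that hold all 8 tagged summits of *snpc-1.2* are shown because TRA-1 peaks were centred in or next to them without a match to the searched motif. No base is in capitals for that reason.
snpc-1.1, chrII:7781302-7781401: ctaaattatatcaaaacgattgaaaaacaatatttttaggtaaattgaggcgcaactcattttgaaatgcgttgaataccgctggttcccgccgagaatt
snpc-1.2, chrIII:13169620-13169719: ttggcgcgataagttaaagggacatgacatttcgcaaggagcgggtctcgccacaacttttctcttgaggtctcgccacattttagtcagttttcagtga

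*snpc-4*, on the plus strand, had a summit at -280 to -205 in all 8 tagged lists. Its fold enrichment there was 2.45 and 3.06 in the unmutated lists, 1.93 and 2.76 in 1xtbs, 2.08 and 1.38 in 2xtbs, and 1.61 and 1.74 in 3xtbs. N2 replicate 1 had a peak of 1.63 at -122, and N2 replicate 2 one of 1.66 at +547, so tagged and untagged values overlapped. Only 3 of the 8 tagged values were above the median peak of their own list, while all 8 were at *snpc-1.1* and at *snpc-1.2*.

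The Argonaute genes had their strongest peaks at their 3′ ends. At *prg-1* the summit lay at +2528 to +3004, with fold enrichment of 4.63 and 4.28 in the unmutated lists, 4.86 and 5.07 in 1xtbs, 5.73 and 3.13 in 2xtbs, and 5.37 and 5.02 in 3xtbs. The N2 lists had peaks of 2.53 and 1.63 in the same region, below all 8 tagged values. The coding gene D2030.12 overlaps *prg-1*, so the gene to which this peak belongs cannot be told apart. A separate peak upstream of *prg-1*, at -255 to -202, was listed in the 4 replicate 2 tagged lists, with fold enrichment of 2.00 to 2.65. In the replicate 1 tagged lists a single peak of 3701 to 3864 bases spanned the whole gene.

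At *prg-2* the strongest summit lay just past the 3′ end, at +2975 to +3048, with fold enrichment of 3.35 and 3.32 in the unmutated lists, 2.225 and 3.86 in 1xtbs, 3.07 and 2.59 in 2xtbs, and 2.71 and 2.80 in 3xtbs. An upstream peak at -223 to -199 was listed in 6 of 8 tagged lists (1.71 to 2.60) and in neither N2 list. N2 replicate 1 had a peak of 1.67 inside the gene at +1502, and N2 replicate 2 had no peak in the window. At both genes the upstream peak was the weaker wherever both were listed. Another coding gene lay in the 2 kb upstream of each, D2030.7 at *prg-1* and C01G5.4 at *prg-2*. The gene to which the upstream peaks belong therefore cannot be told apart.

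*prde-1* and *henn-1* had the weakest peaks. Near the start of *prde-1*, 4 of 8 tagged lists had a peak (1.56 to 1.87, at -139 to -112), and neither N2 list did. *henn-1* had a peak near its start in 7 of 8 tagged lists and in neither N2 list, at 1.25 to 1.92, with summits spread from -247 to +291. It overlaps 2 other coding genes, *fbxl-1* and C02F5.14, and *prde-1* overlaps the coding gene *glb-14*. The coding gene F21A3.4 lies upstream of *prde-1*, so the genes to which these peaks belong cannot be told apart. None of these 11 values was above the median peak of its list.

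Over the whole window, 3 of 8 members were called higher in the tagged lists than in N2 by limma, with 50.4% of all 15002 genes called higher (7558, and 675 lower). They were *prg-1* (log2 difference 1.21, SE 0.25, adjusted p = 0.00348), *prg-2* (1.19, SE 0.25, adjusted p = 0.00402) and *snpc-1.1* (0.94, SE 0.18, adjusted p = 0.00296). *henn-1* (0.53), *snpc-1.2* (0.38), *snpc-4* (0.32), *snpc-1.3* (0.26) and *prde-1* (0.14) were not called, with adjusted p of 0.0539 to 0.705. The median member difference was 0.46, below the median of 0.63 over all genes. Relative to that shift, with each list centred on its median after seeing the data, *prg-1* (0.67, adjusted p = 0.0311) and *prg-2* (0.65, adjusted p = 0.0169) remained higher, among 29.9% of genes (4491, and 3549 lower), *snpc-1.1* did not (0.40, adjusted p = 0.0963), and the other 5 were at or below 0. Leaving out the replicate 1 lists, 0 of 13971 genes were called with 5917 at an unadjusted p of 0.05 or less. Without the replicate 2 lists *prg-2* was not called (0.75, adjusted p = 0.147) and *snpc-1.2* was (0.52, adjusted p = 0.014). *prg-2* was also not called where the summit had to lie inside the window (0.43). In the 2 kb upstream alone *snpc-1.3* (0.48) and *snpc-4* (0.69) were called too, with adjusted p of 0.0323 and 0.0395. There 6889 of 12804 genes were called higher and 305 lower. The *snpc-1.3* value averages the 2 unmutated lists, through which alone it entered that window, with 6 lists that had no promoter peak.

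**Figure D2:**
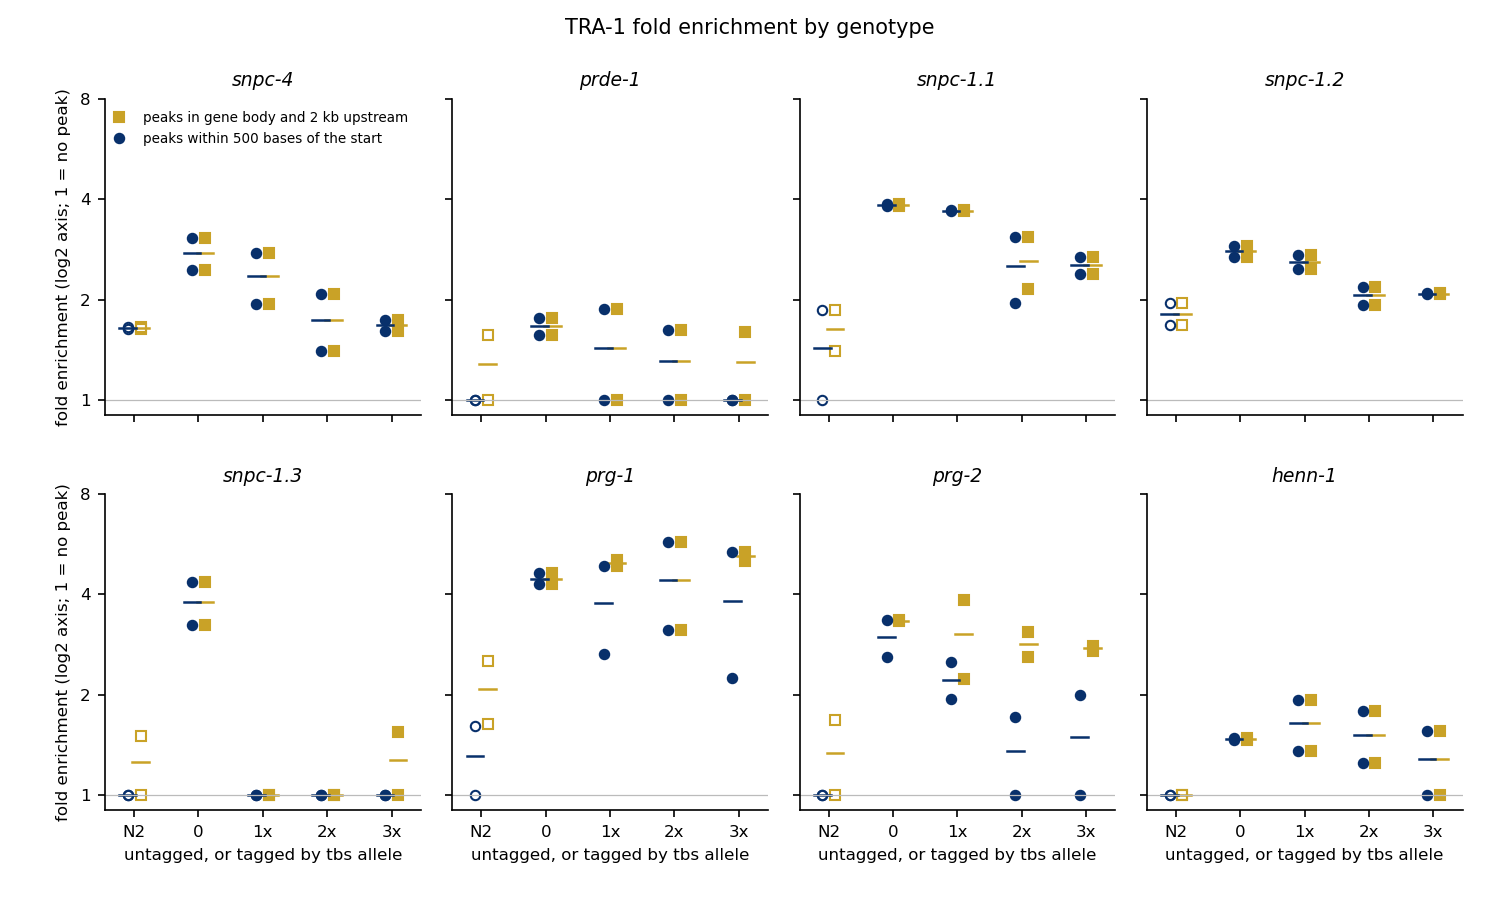
Highest TRA-1 fold enrichment at each gene (log2 axis, 1 where no peak was listed), for untagged N2 and for tagged worms by tbs allele, with a point per list and a bar at the mean of 2 lists. Blue circles are peaks that overlap the 1 kb around the start and yellow squares peaks in the gene body or 2 kb upstream, and only at *snpc-1.3* do the blue points drop from 3.24 and 4.35 to 1 in all 6 mutated lists.

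No member had a peak in all 8 tagged lists and in neither N2 list, a pattern that 823 coding genes (4.08%) had. In the 2 kb upstream alone *prg-1* had it, as did 5.32% of coding genes, and in its replicate 1 lists through the long peak with its summit at the 3′ end. Of 27 other piRNA pathway genes matched, *snpc-3.3*, a paralog of a further SNAPc subunit, had this pattern, and of 14 sex determination genes and TRA-1 targets *fog-3* had it. Of the pathway genes, 19 of 26 tested were called higher in the tagged lists, with a median of 0.82, beside 50.4% and a median of 0.63 over all genes. Those with the smallest adjusted p were *glh-1*, a germ granule helicase (1.46), *snpc-3.4* (1.33), *snpc-3.3* (1.47) and *tofu-1*, found in screens for piRNA defects (1.16). Of the sex determination genes and targets, 8 of 11 tested were called higher, with a median of 1.24, beside the same 50.4% and 0.63. The membrane receptor gene *tra-2* (4.68), *mab-3* (2.29), *fog-1* (2.16), *fem-3* (1.43) and *fog-3* (1.24) all had larger differences than *prg-1*. *fog-1*, a known TRA-1 target in the germline, had fold enrichment of 5.37 to 14.98 in the 8 tagged lists, against 3.13 to 5.73 at *prg-1*, the highest of the 8 genes. *egl-1* had no peak in any list, and *dmd-3* had 1 of 1.51 in a single tagged list.

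Small RNA reads on the members were few. They are reads of small RNA length that overlapped a gene, not mRNA levels, and a read that mapped to several places was counted at each. *prg-1* had the most of the 8 (20 to 297 counts per library) and *snpc-1.3* 0 to 6. The *snpc-1.3(-)* allele is a premature stop and not a deletion, so reads on the gene do not check the label. *snpc-1.3* had 0 counts there in replicate 1, which allows up to 0.446 CPM (counts scaled to the library total, with 3 counts as the limit), and 1 count in replicate 2. WT spe. had 1, 5 and 2 counts, or 0.176, 0.471 and 0.461 CPM. The exact 95% (Clopper-Pearson) interval was 0.00445 to 0.98 CPM for WT spe. replicate 1 and 0.00222 to 0.489 CPM for *snpc-1.3(-)* replicate 2. Reads carried no molecular identifiers, so such intervals and limits cover counting error only. At this depth no difference was detectable. WT oog. had 0.452, 0.335 and 0.526 CPM on this gene, and *snpc-1.3(2xtbs)* had 0.0895, 0.375 and 0.458.

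Fewer small RNA reads fell on the Argonaute genes and on *snpc-4* at spermatogenesis than at oogenesis. *prg-1* had 5.80, 5.47 and 4.61 CPM in WT spe. and 17.1, 16.9 and 18.2 CPM in WT oog. The means were 5.29 ± 0.61 and 17.4 ± 0.71 CPM (SD, n = 3), and the groups did not overlap. *prg-2* had 2.46, 1.32 and 0.461 CPM in WT spe. against 6.42, 6.12 and 6.05 CPM in WT oog., also without overlap. *snpc-4* had 1, 3 and 0 counts in WT spe. (0.176, 0.283 and 0 CPM, where a count of 0 allows 0.692) and 15, 22 and 18 in WT oog. (1.36, 1.84 and 1.58 CPM). The CPM values of WT spe. were also below all those of WT oog. at *snpc-4*, *snpc-1.2*, *prde-1* and *henn-1*. The share of all features without overlap was not counted, so the lack of overlap sets no member apart.

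By edgeR's quasi-likelihood test, after scaling by TMM over all features, 3 of 5 members tested were called lower at 48 hr, with 29.1% of 16968 features called lower. The log2 changes were -2.38 at *snpc-4* (SE 0.67, adjusted p = 0.00516), -1.47 at *prg-2* (SE 0.44, adjusted p = 0.00803) and -1.12 at *prg-1* (SE 0.28, adjusted p = 0.00222). TMM makes these changes smaller than the ratios of CPM. Scaling by the miRNA total moved the median of all features from -0.17 to -1.26 and the calls from 5122 higher and 4943 lower to 2797 and 8169, and the same 3 genes were then at -3.42, -2.50 and -2.11. *snpc-4* and *prg-1* were called with every alternative and with each library left out, and so was *prg-2*, except that the fit of coding genes alone does not hold it. *snpc-1.2* had 0.176, 0.66 and 0 CPM in WT spe. and 1.36, 1.51 and 0.965 in WT oog., and was not called (-1.12, adjusted p = 0.154), but was without WT spe. replicate 2 (-3.04) and with miRNA scaling (-2.23). *prde-1* had 0.879, 0.849 and 0.461 against 1.54, 1.43 and 0.965 CPM and was not called (-0.13, adjusted p = 0.836). Its sign turned with DESeq2's size factors (0.03). *snpc-1.1*, *snpc-1.3* and *henn-1* did not pass the filter on low counts. *snpc-1.1* ranged from 0.352 to 1.15 CPM in the WT spe. libraries and from 0.452 to 0.79 CPM at oogenesis. *henn-1* ranged from 0.176 to 0.231 and from 0.263 to 0.587 CPM. Each time point had its own flow cell, so stage and flow cell cannot be told apart.

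**Figure D3:**
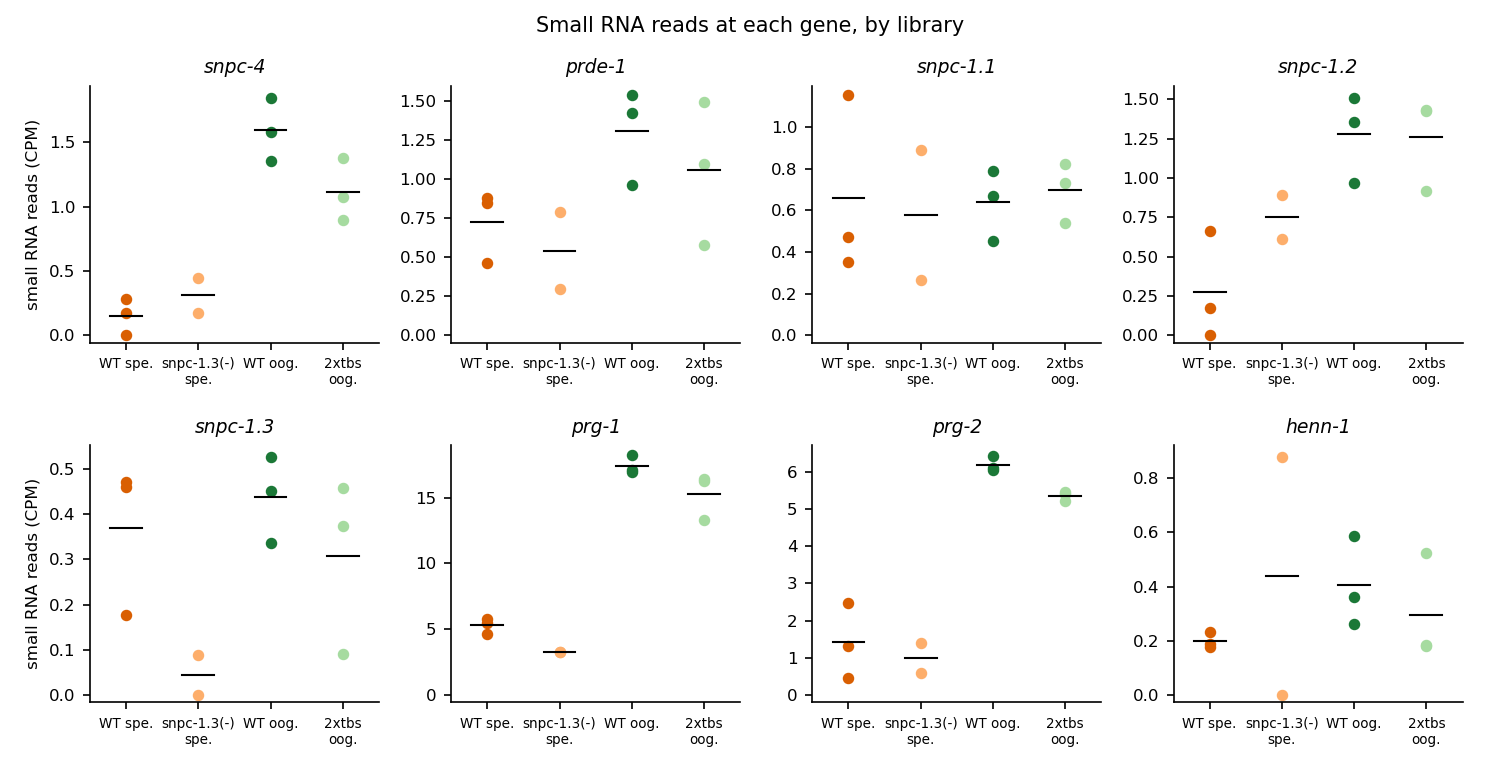
Small RNA reads on each gene in CPM, scaled to the counts on annotated features, with a point per library and a bar at the group mean, on a y axis of its own for each gene. *prg-1*, *prg-2*, *snpc-4* and *snpc-1.2*, the last of them not called, have higher values in all 6 libraries of the 72 hr stage than in any of the 5 libraries of the 48 hr stage. The share of all features separated in this way was not counted, so the separation sets no member apart.

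*prg-1* and *prg-2* followed each other over the 11 libraries (Pearson r = 0.938 of log2(CPM + 0.5), a description over libraries that share their depth and stage). The genes are paralogs, so reads that fit both were counted at both. The coding genes most like *prg-1* among 380 with a mean of at least 10 CPM were *klp-16*, a kinesin gene (r = 0.989), T05E12.8 (0.986) and *egg-4*, a gene of the egg-to-embryo transition (0.980). Of the other pathway genes, 5 of 21 tested were called lower at 48 hr and 0 higher, with a median of -0.65, a share of lower calls under the 29.1% of all features. *pgl-1* (-1.60) and *glh-1* (-1.42), both of germ granules, *znfx-1* (-1.49) and *attf-6* (-1.99) had the smallest adjusted p. Of the 8 sex determination genes tested, *fem-1* (2.51) and *fem-3* (1.21) were called higher at 48 hr and none lower, near the 30.2% of all features called higher.

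No member was called in either *snpc-1.3* mutant. In *snpc-1.3(-)* spe., 0 of 5 members were called by edgeR, with none at an unadjusted p under 0.05 and none by DESeq2, while 36.1% of features were called. These features include the piRNA loci. With coding genes alone 38 of 5523 (0.688%) were called, so the lack of calls sets no member apart. *prg-1* had 3.27 and 3.25 CPM in *snpc-1.3(-)*, under all 3 WT spe. values, but the log2 change after TMM was -0.19 (SE 0.34, adjusted p = 0.721). *snpc-1.2* had 0.891 and 0.614 CPM in *snpc-1.3(-)* (log2 change 1.45, SE 0.78, adjusted p = 0.174). It was called (3.38) when WT spe. replicate 2, the library with 7 of the 8 WT spe. counts, was left out. *snpc-4* had 0.446 and 0.175 CPM, *prg-2* 0.594 and 1.40, and *prde-1* 0.297 and 0.79. *henn-1* had 0 and 10 counts in the 2 *snpc-1.3(-)* libraries. Of the pathway genes, *snpc-3.2* (1.25), *snpc-3.1* (1.21) and *snpc-3.3* (1.06) were called higher in *snpc-1.3(-)*, 3 of 21 beside 18.6% of all features. They are paralogs that can share reads, so they are not 3 independent results.

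In *snpc-1.3(2xtbs)* oog., 0 of 5 members were called by edgeR and by DESeq2, with none at an unadjusted p under 0.05, against 6.97% of features. With coding genes alone 0 of 5523 were called, so here too the lack of calls sets no member apart. *prg-1* had 13.3, 16.3 and 16.4 CPM there and *prg-2* 5.46, 5.40 and 5.23, with log2 changes from WT oog. of 0.22 (SE 0.26) and 0.24 (SE 0.37). The sign comes with the TMM scaling. All 3 *prg-2* CPM values were under all 3 of WT oog., and with the miRNA total as the scale the changes were -0.35 at *prg-1* and -0.38 at *prg-2*, beside a median of -0.65 over all features. *snpc-4* had 1.07, 0.899 and 1.38 CPM, *snpc-1.2* 1.43, 1.42 and 0.917, and *prde-1* 0.582 to 1.50. The log2 changes of all 5 lay between -0.08 and 0.49. Of the pathway genes and the sex determination genes, 0 of 21 and 0 of 8 were called.

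Among the bins that could be tested, SNPC-1.3 ChIP over the members showed none called by its tag. The deposited files list only 1 kb bins from about 10.5 CPM of IP up, which were 33.87 to 45.26% of all bins. The comparison used bins that all 6 files list, which left 15 bins at 6 members, with none at *snpc-1.1* or *snpc-1.3*. By edgeR on IP and input counts, 0 of these 15 bins were called between tagged and N2 worms, with 0 at an unadjusted p under 0.05 and 0 called by DESeq2 or limma, against 2.83% of 14223 bins. Their log2 differences lay between -0.21 and 0.07. With bins that the 4 files of this comparison list, 0 of 22 bins at 7 members were called, with 0 at an unadjusted p under 0.05, against 3.46% of 17306 bins. Among them was the bin across the start of *snpc-1.1*, with log2 IP over input of 0.08 and 0.13 in N2 and 0.29 and 0.34 in tagged worms, which did not overlap (log2 difference 0.22, SE 0.11, adjusted p = 0.599). After SNPC-4 depletion 0 of 15 were called, with 1 at an unadjusted p under 0.05 by edgeR, against 2.86% of bins. The log2 differences lay between -0.10 and 0.25, and the highest was in the bin centred at -2133.5 from the start of *prg-1*. Of the bins that the 4 files of this comparison list, 0 of 17 were called, against 4.1% of 16629.

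**Figure D4:**
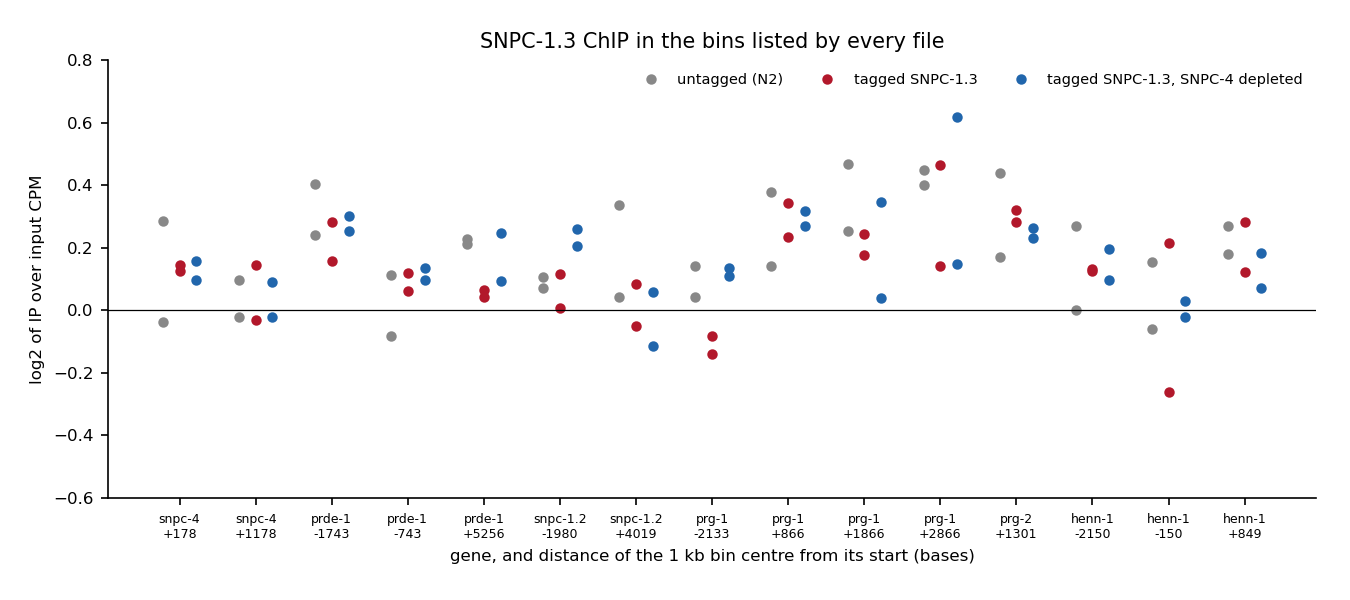
SNPC-1.3 ChIP in the 15 bins of the member genes that every file lists, as log2 of IP over input CPM, with 2 points for each of 3 genotypes. Tagged and untagged points overlap in most bins, and no bin was called.

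Which bins were listed differed between members. Of all bins, the tagged files listed 33.87 and 34.79%. The N2 files listed 43.8 and 43.43%, and the files after SNPC-4 depletion 45.26 and 42.65%. Over the whole genome the tagged files thus listed fewer bins, though not at every gene. *prg-2* (chrIV:6526962-6529802) lies inside the small piRNA cluster of chromosome IV as the paper places it. An annotated piRNA locus, 21ur-6672, is in its 2 kb upstream. At the piRNA clusters the paper reports SNPC-1.3 enrichment that was lost upon SNPC-4 depletion. All 6 bins of its window were listed in both *snpc-1.3::3xflag* files, against 1 and 2 of 6 in N2 and 1 and 2 of 6 after SNPC-4 depletion. The log2 of IP over input in those bins of the tagged files was 0.169 to 0.591. Only the bin centred at 1301.5 could be tested (log2 difference -0.01, adjusted p = 0.997 by edgeR). The bins with the highest tagged values, 0.591 and 0.580, were listed in neither N2 file and so were not tested. Over *snpc-1.3* itself, in the direction of the whole files, none of its 5 bins was listed in either tagged file, 3 and 4 were in N2, and 3 and 1 after depletion. *prg-1* had 6 of 6 bins listed in 5 of the 6 files, and *henn-1* 5 of 5 in 5 of 6. These counts of listed bins were not tested.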

How the data were processed

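Small RNA, TRA-1 ChIP and SNPC-1.3 ChIP samples were grouped by their titles. The members and the gene lists were chosen with earlier results of these data known. The authors aligned small RNA reads with Bowtie 1.1.1 (WBcel235) and counted them with featureCounts of Subread 1.6.3. These deposited counts are raw, and the strand setting is not given in the sources used here. For SNPC-1.3 ChIP the authors deposited read counts and CPM of IP and input for listed 1 kb bins. For TRA-1 ChIP the authors called peaks per replicate against its input with MACS2 2.1.2. The deposited fold enrichment is a ratio to background, and the deposited −log10 q is that of MACS2. A separate deposited table of normalized counts of chromosome IV piRNAs was not used.

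The fits of counts used edgeR 4.0.16 under R 4.3.3 (glmQLFit and glmQLFTest, no replicate block, filterByExpr and TMM for small RNA, library totals for bins) and called at an adjusted p of 0.05 and, for small RNA, a log2 change of 0.26. TRA-1 used limma 3.58.1 on log2 of the highest fold enrichment of a peak overlapping the window by 1 base or more. That fit was over coding genes, to which the pseudogene *prg-2* was added after the data were seen. p-values were adjusted by Benjamini-Hochberg over all features tested. DESeq2 1.42.0, other scalings, filters, windows and samples left out were alternatives. The fits were tested on simulated data. The text names all 8 members, up to 4 called genes of each list with the smallest adjusted p, *fog-1*, *fog-3*, *mab-3*, *egl-1* and *dmd-3* for TRA-1, the 3 genes with the smallest adjusted p for a negative slope, and the 3 genes most like *prg-1*. Of the listed names, 27 of 30 pathway genes and 14 of 14 sex determination genes and targets were found. *znfx-1* is ZK1067.2 in the files. The motif search and the reference sequences used the WBcel235 genome, and the templates are the study's listed oligonucleotides.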

Additional observations from a re-analysis of the deposited data

How the results depend on the processing

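The members called kept their number within 1.5 times except as follows. For TRA-1 in tagged against untagged lists, 3 were called, 5 in the 2 kb upstream alone, and 0 to 3 with a replicate number left out, where *snpc-1.2* replaced *prg-2* without replicate 2. In the 2 kb upstream, 56.2% of all genes were called in tagged against untagged lists, so the member count there is near that share. For the tbs alleles, 0 members were called, and 1 (*snpc-1.3*) in the 2 kb upstream and within 500 bases of the start. It was also called there as mutated minus unmutated lists. Its values in these windows restate which lists had the peak. The pattern of all tagged lists and neither N2 list had 0 members, and 1 in the 2 kb upstream, beside 4.08 and 5.32% of coding genes. It had 2 members without replicate 1 and 1 without replicate 2, beside 7.81 and 11.4% of coding genes. After loss of *snpc-1.3*, 0 to 1 were called with a library left out.

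Counts over all features moved more. With coding genes alone, 2229 features were called by stage (10065 with all), 38 after loss of *snpc-1.3* (6128) and 0 in *snpc-1.3(2xtbs)* (1183, and 362 of the coding genes at an unadjusted p of 0.05 or less). *snpc-1.3(2xtbs)* had 485 with miRNA scaling and 611 to 2518 with a library left out. TRA-1 tagged against untagged had 8233 called, 5031 of the genes with a peak in all 10 lists, and 0 to 8313 with a replicate number left out. For the tbs alleles 17 genes were called, 30 within 500 bases of the start, 44 with peaks of q 0.05 or less, 1 with the summit inside the window, 216 of those with a peak in all 8 tagged lists, and 6 and, within 500 bases of the start, 5 as mutated minus unmutated. None was called with a replicate number left out (0 both times by limma, with 1760 and 2043 at an unadjusted p of 0.05 or less), where 2 residual degrees of freedom remain. After SNPC-4 depletion 407 bins were called, and 682 of those listed in the 4 files compared.

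Signs turned as follows. *prde-1* by stage was -0.13 and became 0.03 with DESeq2's size factors, 0.026 with its Wald test, and 0.20 without WT spe. replicate 3. With each list centred on its median, the TRA-1 differences became -0.22 at *snpc-4*, -0.16 at *snpc-1.2*, -0.28 at *snpc-1.3*, -0.40 at *prde-1* and -0.009 at *henn-1*, and with a replicate number left out *prde-1* ranged from -0.443 to 0.731. Slopes over the tbs alleles became 0.023 at *prde-1*, 0.063 at *prg-2* and 0.069 at *henn-1* when centred. Within 500 bases of the start *prg-1* was at -0.084, and at -0.25 there as mutated minus unmutated. With a replicate number left out *henn-1* ranged from -0.225 to 0.060 and *prg-1* from -0.001 to 0.088. The cause was not tested.

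Over all features the replicate numbers were not shown to pair samples. Deviations of same-numbered samples correlated at -0.31 to 0.28 for small RNA, -0.097 to 0.44 for TRA-1 and 0.059 to 0.12 for SNPC-1.3. In the TRA-1 lists of every tagged genotype, though, the 3′ peaks of *prg-1* and *prg-2* were longer in replicate 1 than in replicate 2. Whether replicate numbers mark a batch there was not tested. With the number as a replicate block, 9837, 5748 and 929 features were called in the small RNA comparisons, 8356 and 16 genes for TRA-1 and 427 and 440 bins for SNPC-1.3, and no member gained or lost a call. Low counts limit the small RNA results on *snpc-1.1*, *snpc-1.3* and *henn-1*, and a peak missing from a TRA-1 list does not show that TRA-1 was absent.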
